A study of Bos indicus and Bos indicus x Bos taurus and Bos taurus with 6 samples.

Results

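The genes described here are 10 genes of cytotoxic lymphocytes in cattle blood: the granzymes GZMA, GZMB, GZMK and GZMM, the pore-forming proteins PRF1 and GNLY, the granule proteins NKG7 and CTSW, the chemokine CCL5 and the surface receptor ADGRG1. They were taken by gene symbol from the deposited count table, where all 10 were found among 21698 genes. All 10 were among the 13455 genes tested, since the count filter was set to keep each of the 10 that had any count. Whole blood came from the jugular vein of Kedah-Kelantan cows (an indigenous tropical breed that the labels call heat-tolerant, Bos indicus), Brangus cows (a composite breed placed between the others in tolerance) and Holstein Friesian cows (a temperate breed called heat-vulnerable, Bos taurus). All were healthy, non-pregnant, non-lactating adult females of mean age 4.5 ± 1.2 years and mean weight 450 ± 15 kg on 1 farm in Malaysia, sampled under heat stress at a temperature-humidity index of 44.68. There were 2 libraries of each breed, named as biological replicates, and n = 2 for every breed value. The design text speaks of 4 animals in each breed, and whether a library held RNA of 1 animal or of several is not known here. Samples outside heat stress were not analysed here, so the values compare breeds and not heat loads.

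Natural killer cells and cytotoxic T cells store granzymes, perforin and granulysin in secretory granules and release them onto an infected or transformed target cell. Perforin opens the target membrane, granzymes enter and cleave proteins inside the target, and granulysin damages the membranes of microbes and of the cell that harbours them. CCL5 is made by the same cells and draws further leukocytes through chemokine receptors on their surface. ADGRG1, also called GPR56, marks cytotoxic lymphocytes in human blood. Cattle blood also holds many gamma delta T cells.

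Total counts ranged from 25275377 to 28668857 per library. The Holstein Friesian libraries stood apart from each other: of 10448 well-counted genes, 2608 differed over 2-fold between the replicates of Holstein Friesian, against 417 in Brangus and 31 in Kedah-Kelantan. Summed levels of marker genes showed the same gap. Monocyte markers summed to 515 CPM (counts scaled to the size of the library) in Holstein Friesian replicate 1 and 8216 in replicate 2, neutrophil markers to 383 and 5247, and B cell markers to 3160.4 and 214. T cell markers varied less, between 2839.6 and 3925 CPM over the 6 libraries. In whole blood, fewer cells of a type and less RNA per cell cannot be told apart. The blood label fitted its markers, since T cell CD3E, B cell MS4A1, neutrophil S100A8 and red cell HBB all had counts in every library.

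Across breeds, CCL5 and ADGRG1 were higher in both Kedah-Kelantan libraries than in any Brangus or Holstein Friesian library, with fitted folds of 3.52 and 3.94 over Holstein Friesian and 3.74 and 3.85 over Brangus. GZMK, GZMM and CTSW were also higher in both Kedah-Kelantan libraries than in any library of the other breeds, with smaller fitted folds. Over all genes, both Kedah-Kelantan libraries lay above both Holstein Friesian ones for 18.1% and above both Brangus ones for 33.5%. The share of all genes above both breeds at once was not counted. GZMB was highest in both Holstein Friesian libraries, and all 10 genes had a positive log2 fold change in Kedah-Kelantan against Brangus. No gene of the 10 passed edgeR's quasi-likelihood test at an adjusted p under 0.05 in any comparison. Over all genes, 0.00743% passed in Kedah-Kelantan against Holstein Friesian, 0.00743% in Brangus against Holstein Friesian, 0% in Kedah-Kelantan against Brangus and 0% in the test of any breed difference. At an unadjusted p under 0.05, edgeR had 4 of the 10 in Kedah-Kelantan against Holstein Friesian (4.04% of all genes), 1 in Brangus against Holstein Friesian (7.62%), 6 in Kedah-Kelantan against Brangus (11.6%) and 5 for any breed difference (8.23%). The 10 genes were chosen with earlier results of these data known, and some vary together (CCL5 and ADGRG1, r = 0.99). These counts are therefore not a test of the set. DESeq2 called CCL5, ADGRG1 and GZMB in the first comparison (0.985% of all genes), GZMB in the second (2.33%), CCL5, ADGRG1, GZMB and GZMK in the third (4.99%), and CCL5, ADGRG1 and GZMB for any breed difference (4.65%).

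**Figure D1:**
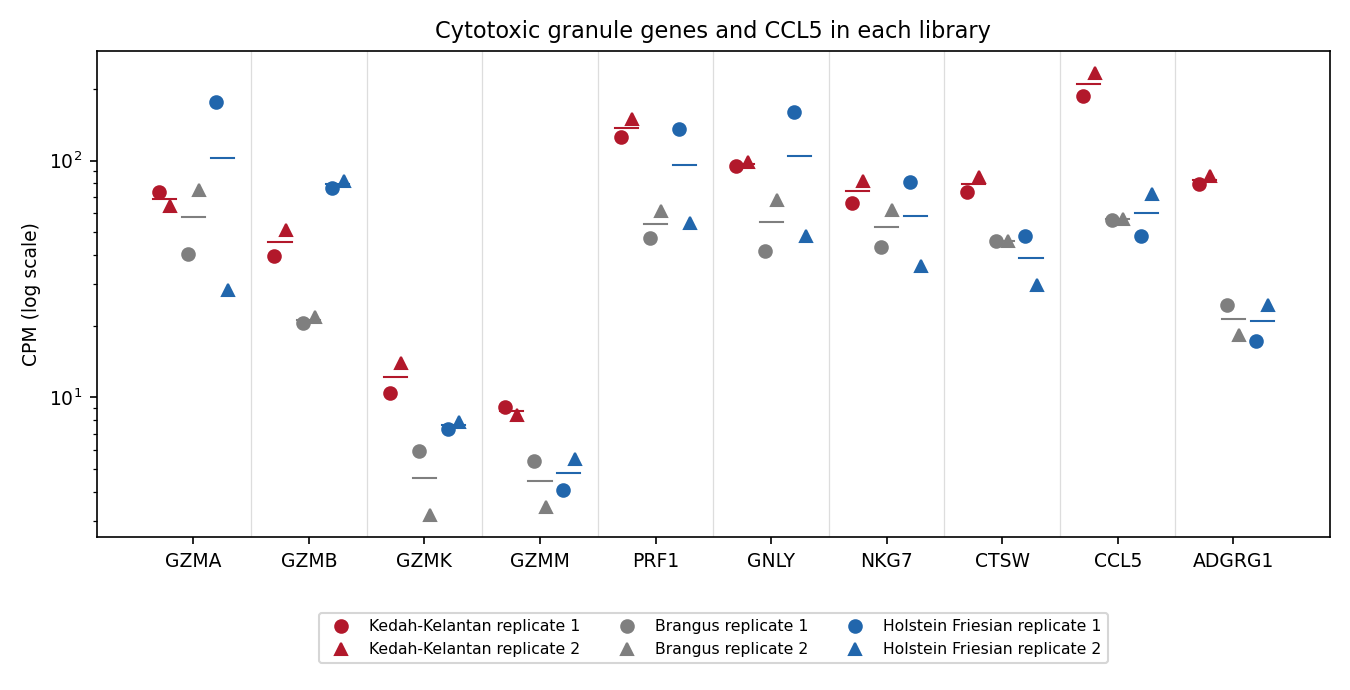
Level of each of the 10 genes in CPM (log axis) in each library, circles for replicate 1, triangles for replicate 2 and a short bar for the mean of the breed. CCL5, ADGRG1, GZMK, GZMM and CTSW in both Kedah-Kelantan libraries lie above all other libraries, by most for CCL5 and ADGRG1. GZMB is highest in Holstein Friesian, and the Holstein Friesian replicates lie far apart for GZMA (176 and 28.4 CPM).

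Of the 4 granzymes, GZMB had the smallest unadjusted edgeR p for any breed difference (0.000369). GZMB (chromosome 21, 34741243 to 34743324, plus strand, in the deposited positions) encodes the granzyme that cleaves after aspartate and, in human and mouse, triggers caspases in the target cell. It had 39.6 and 50.9 CPM in Kedah-Kelantan blood, 20.7 and 21.8 in Brangus blood, and 76.7 and 81.8 in Holstein Friesian blood. No breed's libraries overlapped those of another. Kedah-Kelantan against Holstein Friesian stood at -0.81 on the log2 scale (SE 0.19, edgeR adjusted p = 0.995). For Brangus against Holstein Friesian it was -1.90 (SE 0.20, edgeR adjusted p = 0.34), and for Kedah-Kelantan against Brangus 1.09 (SE 0.19, edgeR adjusted p = 0.351). DESeq2 gave these an adjusted p of 0.0382, 1.57e-12 and 0.000561. The spread within Holstein Friesian was small for this gene, and 89.8% of well-counted genes had a larger gap between these replicates.

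GZMA behaved differently. GZMA (chromosome 20, 24009813 to 24018787, minus strand), a granzyme of trypsin-like cleavage, had 73.3 and 64.2 CPM in Kedah-Kelantan cows, 40.2 and 75.0 in Brangus cows, and 176 and 28.4 in Holstein Friesian cows. The Holstein Friesian replicates held both the highest and the lowest of the 6 values, a gap of 6.2-fold that 6.74% of well-counted genes exceeded. Its log2 fold changes were -0.57 (SE 0.83), -0.83 (SE 0.84) and 0.26 (SE 0.83): first Kedah-Kelantan, then Brangus against Holstein Friesian, and last Kedah-Kelantan against Brangus. All 3 were smaller than their SE.

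GZMK and GZMM had the fewest counts of the 10 genes in every library. GZMK (chromosome 20, 24073111 to 24083866, minus strand), a second trypsin-like granzyme beside GZMA, had 10.4 and 13.97 CPM in the Kedah-Kelantan libraries, 5.95 and 3.18 in those of Brangus, and 7.38 and 7.87 in those of Holstein Friesian. Every Kedah-Kelantan value was above every Holstein Friesian value, and those were above both Brangus values. The log2 fold change of Kedah-Kelantan against Brangus was 1.42 (SE 0.41, edgeR adjusted p = 0.365, DESeq2 adjusted p = 0.0418). GZMM (chromosome 7, 43182646 to 43189040, plus strand), which in human cleaves after methionine or leucine, had 9.07 and 8.38 CPM in Kedah-Kelantan blood, 5.40 and 3.44 in Brangus blood, and 4.06 and 5.51 in Holstein Friesian blood. Kedah-Kelantan was above the other breeds, which overlapped each other. GZMM was 0.87 (SE 0.39) higher on the log2 scale against Holstein Friesian and 0.98 (SE 0.39) against Brangus.

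The pore-forming genes were low in Brangus and split within Holstein Friesian. PRF1 (chromosome 28, 26783289 to 26787841, minus strand), perforin, had 126 and 149.7 CPM in Kedah-Kelantan cows, 46.9 and 61.2 in Brangus cows, and 137 and 54.4 in Holstein Friesian cows. Holstein Friesian replicate 1 lay within the Kedah-Kelantan range and replicate 2 within the Brangus range. The log2 fold change of Kedah-Kelantan against Brangus was 1.35 (SE 0.46, edgeR adjusted p = 0.388). GNLY (chromosome 11, 49258428 to 49260833, minus strand), granulysin, had 94.6 and 98.4 CPM in the Kedah-Kelantan libraries, 41.4 and 68.1 in those of Brangus, and 161 and 48.2 in those of Holstein Friesian. Kedah-Kelantan was above both Brangus libraries (0.82, SE 0.59), and the Holstein Friesian replicates lay on either side of it.

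NKG7 and CTSW encode other granule-associated proteins. NKG7 (chromosome 18, 57439878 to 57442629, minus strand), a granule membrane protein that promotes granule release in mice, had 66.2 and 82.2 CPM in Kedah-Kelantan blood, 43.1 and 61.7 in Brangus blood, and 81.1 and 35.7 in Holstein Friesian blood. The Kedah-Kelantan and Brangus values did not overlap, but the log2 fold change of 0.50 was close to its SE of 0.43. CTSW (chromosome 29, 43995890 to 43999310, plus strand), a cathepsin-type cysteine protease of cytotoxic lymphocytes, had 73.4 and 85.1 CPM in Kedah-Kelantan cows, 45.7 and 45.7 in Brangus cows, and 48.0 and 29.8 in Holstein Friesian cows. Both Kedah-Kelantan values were above the other 4. CTSW was 1.03 (SE 0.27) higher on the log2 scale against Holstein Friesian and 0.79 (SE 0.26) against Brangus, with edgeR adjusted p = 0.995 and 0.388. FIBP lies on the opposite strand and overlaps CTSW in the deposited positions. The strandedness of the counting is not given, so how reads were split between them is uncertain.

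Per gene length, in FPKM, CCL5 was the most abundant of the 10 genes in both Kedah-Kelantan libraries. CCL5 (chromosome 19, 14509140 to 14515888, plus strand) had 188 and 235 CPM in the Kedah-Kelantan libraries, 56.3 and 56.8 in those of Brangus, and 47.9 and 72.3 in those of Holstein Friesian. The lowest Kedah-Kelantan library was above the highest of the other breeds, and Brangus lay inside the Holstein Friesian range. The log2 fold change was 1.81 against Holstein Friesian and 1.90 against Brangus (SE 0.26 for each, edgeR adjusted p = 0.58 and 0.337, DESeq2 adjusted p = 1.07e-05 and 8.25e-07). Brangus against Holstein Friesian was -0.09 (SE 0.25), with an unadjusted 95% interval of -0.72 to 0.54.

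ADGRG1 was likewise higher in Kedah-Kelantan than in the other breeds, which overlapped each other. ADGRG1 (chromosome 18, 25595360 to 25641532, plus strand), an adhesion G protein-coupled receptor, had 79.4 and 85.7 CPM in Kedah-Kelantan blood, 24.5 and 18.4 in Brangus blood, and 17.3 and 24.6 in Holstein Friesian blood. Kedah-Kelantan averaged 82.6 ± 4.46 CPM, Brangus 21.5 ± 4.35 and Holstein Friesian 21.0 ± 5.15 (SD, n = 2 each). The log2 fold change was 1.98 (SE 0.26, edgeR adjusted p = 0.545) against Holstein Friesian and 1.94 (SE 0.26, edgeR adjusted p = 0.337) against Brangus. DESeq2 gave an adjusted p of 7.45e-07 and 5.59e-07. Brangus against Holstein Friesian was 0.03 (SE 0.25), with an interval of -0.60 to 0.67.

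**Figure D2:**
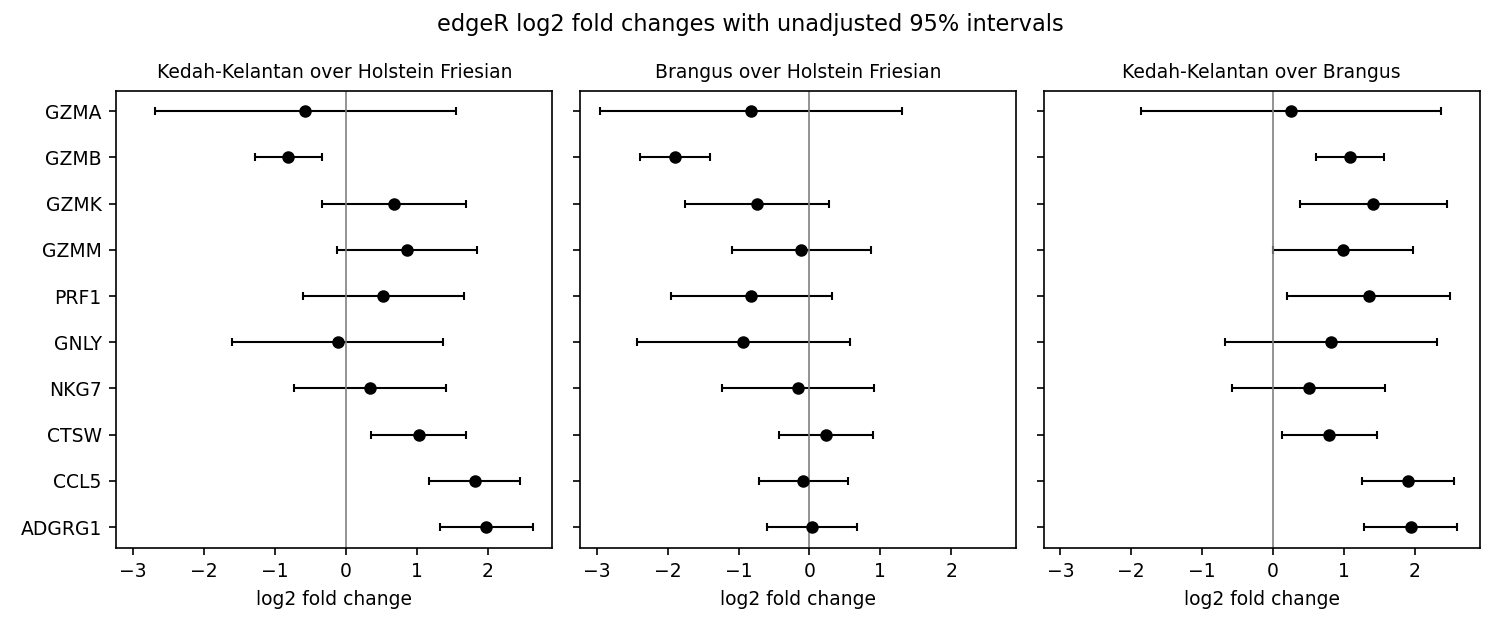
edgeR log2 fold changes (points) with unadjusted 95% intervals (lines) of the 10 genes in the 3 comparisons, the first breed named over the second. CCL5 (1.81 and 1.90) and ADGRG1 (1.98 and 1.94) lie well right of 0 in both comparisons of Kedah-Kelantan and near 0 for Brangus over Holstein Friesian, where GZMB lies furthest left (-1.90).

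Over the 10 genes, the median log2 fold change was 0.60 for Kedah-Kelantan against Holstein Friesian, with 7 higher (46.5% of all genes) and 3 lower (53.5%), while the median of all genes was -0.03. For Brangus against Holstein Friesian it was -0.45, with 2 higher (47.3% of all genes) and 8 lower (52.7%), against -0.03 for all genes. For Kedah-Kelantan against Brangus it was 1.04, with 10 higher (51.9% of all genes) and 0 lower (48.1%), against 0.02 for all genes. Libraries did not overlap, on the higher side, for 5 of the 10 in Kedah-Kelantan against Holstein Friesian (18.1% of all genes) and, on the lower side, for 1 (12.6%), GZMB. In Brangus against Holstein Friesian 2 did not overlap on the lower side, GZMB and GZMK (15.9%), and 0 on the higher side (18.4%). In Kedah-Kelantan against Brangus 9 did not overlap on the higher side (33.5%), with GZMA the exception, and 0 on the lower side (30.7%). The first and the third comparison share the Kedah-Kelantan libraries, and the first and the second share the Holstein Friesian ones.

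The calls in Kedah-Kelantan against Brangus depended on which libraries entered the fit. With only these 2 breeds in the fit, edgeR called 7 of the 10 higher in Kedah-Kelantan: CCL5, ADGRG1, PRF1, GZMB, CTSW, GZMK and GNLY. It then called 19.3% of all genes. limma-voom with sample weights called 6 of the 10 there, the same without GNLY, and 14.4% of all genes. It called 0 of the 10 in each of the other comparisons, where it called 0% of all genes. In Kedah-Kelantan against Brangus, GZMM, NKG7 and GZMA passed in neither fit.

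The comparisons with Holstein Friesian depended on which of its libraries was used for some of the genes and not for others. Without Holstein Friesian replicate 1, GZMA was 1.28 higher on the log2 scale in Kedah-Kelantan than in Holstein Friesian, and without replicate 2 it was -1.40. GNLY was 1.00 and -0.78 in the same order, PRF1 1.34 and -0.03, and NKG7 1.06 and -0.17. CCL5 kept its direction at 1.55 and 2.10, ADGRG1 at 1.75 and 2.21, CTSW at 1.41 and 0.68, and GZMB at -0.85 and -0.80. With 1 Holstein Friesian library left, that library is assumed to vary like the other breeds. Yet the Holstein Friesian replicates differed over 2-fold in 2608 of 10448 well-counted genes, against 417 in Brangus and 31 in Kedah-Kelantan. That assumption therefore does not hold here, and calls against Holstein Friesian in these fits leave out the gap between its replicates. These fits called 7 and 5 of the 10, against 17.5% and 11.9% of all genes. For Brangus against Holstein Friesian the same fits gave GZMB -1.95 and -1.89, both calls. GZMA was 1.01 without replicate 1 and -1.65, a call, without replicate 2. These fits called 2 and 4 of the 10 there, against 31.3% and 6.06% of all genes. For Kedah-Kelantan against Brangus each fit called 7 of the 10, against 17.4% and 17.5% of all genes, and for any breed difference 8 and 7, against 34.1% and 19.9%.

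**Figure D3:**
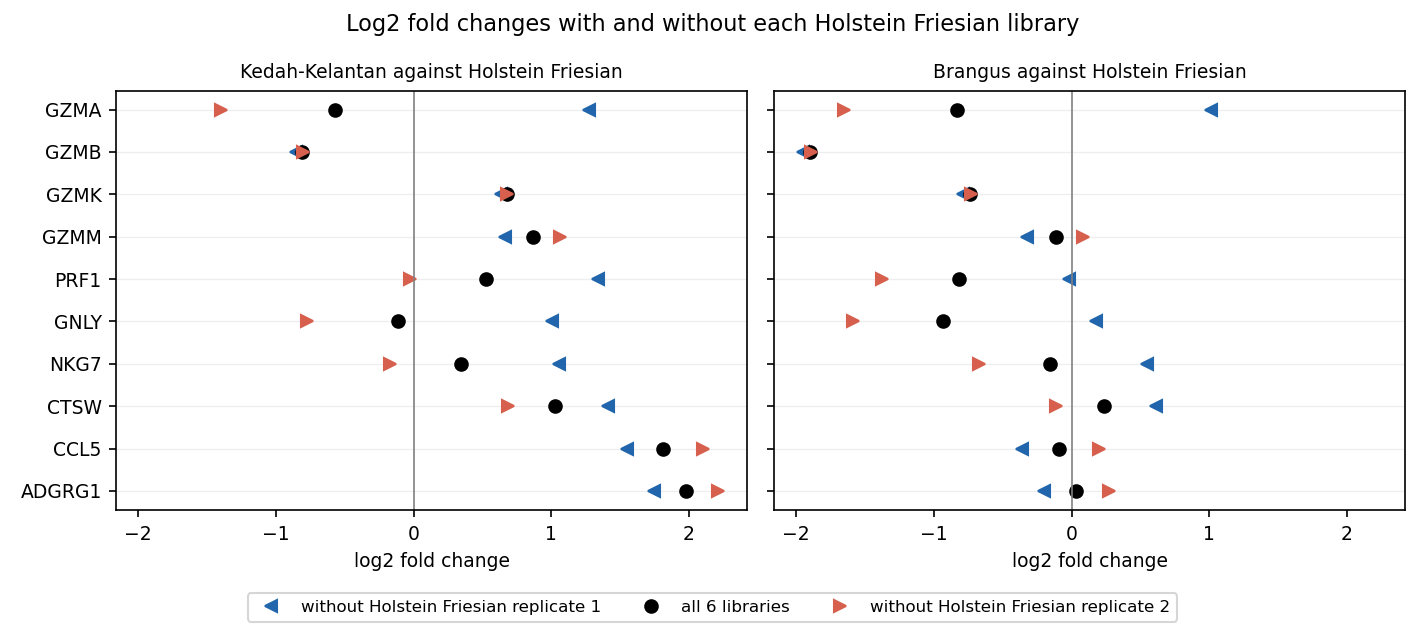
edgeR log2 fold changes of the 10 genes against Holstein Friesian with all 6 libraries (circles), without Holstein Friesian replicate 1 (triangles pointing left) and without replicate 2 (triangles pointing right). GZMA moves between 1.28 and -1.40 in Kedah-Kelantan against Holstein Friesian, while GZMB, GZMK, GZMM, CTSW, CCL5 and ADGRG1 stay on one side of 0 there.

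GZMA, GNLY, PRF1 and NKG7 were each over 2-fold higher in Holstein Friesian replicate 1 than in replicate 2. Such gaps were common, since 2608 of 10448 well-counted genes differed over 2-fold, in either direction, between these replicates. A larger gap was seen in 6.74%, 12.3%, 17.6% and 20.5% of those genes, in the order of the 4 named. No gene of the 10 differed over 2-fold between the replicates of Kedah-Kelantan (31 of the 10448 genes) or of Brangus (417). CCL5 and ADGRG1 went the other way, at 0.663 and 0.704 of the replicate 2 level in replicate 1. Of 16 transcription factor genes of the cytotoxic programme, 10 were higher and 6 lower in Holstein Friesian replicate 1 than in replicate 2. Over 2-fold, 5 were higher (TBX21, EOMES, ZNF683, HOPX and IKZF3) and 1 was lower (NFIL3, 19.7 and 134 CPM), while ID2 had 77.5 and 153 CPM and BHLHE40 228 and 206. Over all well-counted genes the count beside this is again 2608 of 10448. The genes given next were chosen after their values were seen. TBX21 (T-bet) had 483 and 56.0 CPM in Holstein Friesian replicates 1 and 2, EOMES 164 and 28.0, and ZNF683 (Hobit) 212 and 9.35. In Kedah-Kelantan and Brangus these genes lay between the Holstein Friesian values, with TBX21 at 284 and 308 CPM in Kedah-Kelantan and 292 and 239 in Brangus. The gamma delta T cell list includes BLK, GATA3 and ID3 and is not specific to these cells. Its sum was also higher in Holstein Friesian replicate 1, at 428 CPM against 136 in replicate 2. Of the sums given above, that of B cells was higher in replicate 1 too, and those of monocytes and neutrophils in replicate 2. The part of these cell types in the result was not tested.

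Ratios of counts within a library do not depend on how libraries are scaled. ADGRG1 had 0.422 and 0.365 counts per CCL5 count in Kedah-Kelantan blood, 0.436 and 0.324 in Brangus blood, and 0.361 and 0.340 in Holstein Friesian blood, while CCL5 itself varied from 47.9 to 235 CPM. GZMA had 0.3896 and 0.273 counts per CCL5 count in Kedah-Kelantan blood, 0.714 and 1.32 in Brangus blood, and 3.67 and 0.393 in Holstein Friesian blood. GZMB had 0.210 and 0.217 per CCL5 count in Kedah-Kelantan blood, 0.368 and 0.384 in Brangus blood, and 1.60 and 1.13 in Holstein Friesian blood. Thus the ratio of GZMB to CCL5 was higher in both Holstein Friesian libraries than in any other library and lower in both Kedah-Kelantan libraries.

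Per length, the deposited FPKM (counts scaled by library total and gene length) let the genes be compared with each other. CCL5 had 286 and 349.9 FPKM in Kedah-Kelantan cows, 71.0 and 71.0 in Brangus cows, and 68.1 and 92.4 in Holstein Friesian cows. It made up 38.7% and 41.4% of the summed FPKM of the 10 genes in Kedah-Kelantan blood, 27.5% and 21.8% in Brangus blood, and 9.99% and 27.3% in Holstein Friesian blood. GNLY was the most abundant of the 10 in Brangus replicate 2 (26.7%) and Holstein Friesian replicate 1 (34.3%), and CCL5 in the other 4 libraries. GZMB made up 6.8% and 7.51% in Kedah-Kelantan blood, 8.45% and 6.99% in Brangus blood, and 13.4% and 25.8% in Holstein Friesian blood. GZMM was the lowest of the 10 in all 6 libraries.

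**Figure D4:**
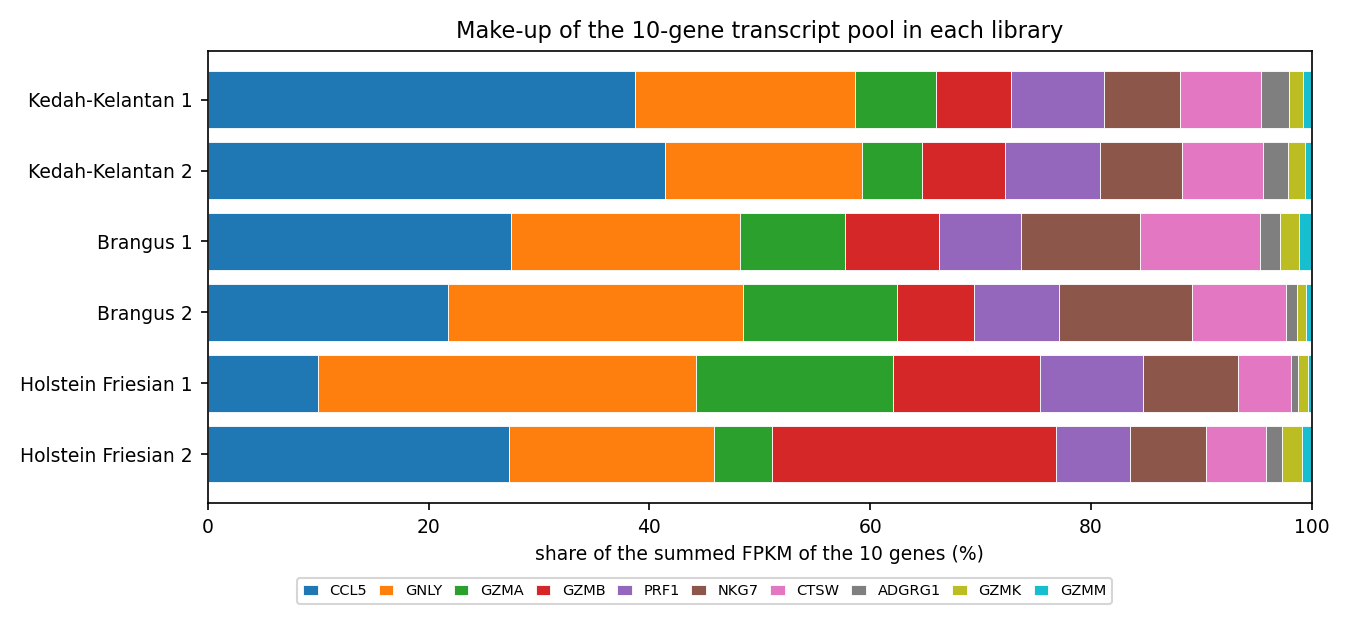
Share in percent of the summed FPKM of the 10 genes taken by each gene, 1 horizontal bar per library with colours for genes. CCL5 takes 38.7% and 41.4% in Kedah-Kelantan, GNLY 34.3% in Holstein Friesian replicate 1, and GZMB 25.8% in Holstein Friesian replicate 2.

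The annotation holds further rows of the same families, and reads could be split between near-identical copies. The sequences of these copies were not compared here. LOC617313 (chromosome 21, 34811400 to 34814520, minus strand), described as granzyme H, had 56.1 and 61.8 CPM in the Kedah-Kelantan libraries, 48.9 and 102 in those of Brangus, and 155 and 11.7 in those of Holstein Friesian. It parted between the Holstein Friesian replicates in the direction of GZMA. LOC508646 (chromosome 21, 34876608 to 34880133), described as granzyme B, had 4.73 and 3.93 CPM in Kedah-Kelantan blood, 2.31 and 0.387 in Brangus blood, and 7.89 and 6.27 in Holstein Friesian blood, the same breed order as GZMB at a lower level. The row gzmA (chromosome 20, 24024603 to 24035304), described as granzyme A, had at most 56 counts, in Holstein Friesian replicate 2, and LOC788601, a second row described as granzyme H, had at most 1.

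An NK-lysin row had another breed order than GNLY. LOC104968634 (chromosome 11, 49225782 to 49228238, minus strand), described as the antimicrobial peptide NK-lysin, had 9.46 and 9.03 CPM in Kedah-Kelantan cows, 64.8 and 37.4 in Brangus cows, and 7.62 and 5.97 in Holstein Friesian cows. Both Brangus libraries were above the other 4, whereas GNLY, on the same strand 30190 bases away, had lower values in both Brangus libraries than in both Kedah-Kelantan ones. The log2 fold change of LOC104968634 was 2.91 (SE 0.34, edgeR adjusted p = 0.424, DESeq2 adjusted p = 3.33e-10) for Brangus against Holstein Friesian. For Kedah-Kelantan against Brangus it was -2.47 (SE 0.34, edgeR adjusted p = 0.337, DESeq2 adjusted p = 1.47e-07). The other NK-lysin row, LOC100300483 (chromosome 11, 49190625 to 49193121), had 5.25 and 5.88 CPM in the Kedah-Kelantan libraries, 2.83 and 2.45 in those of Brangus, and 1.41 and 4.30 in those of Holstein Friesian.

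**Figure D5:**
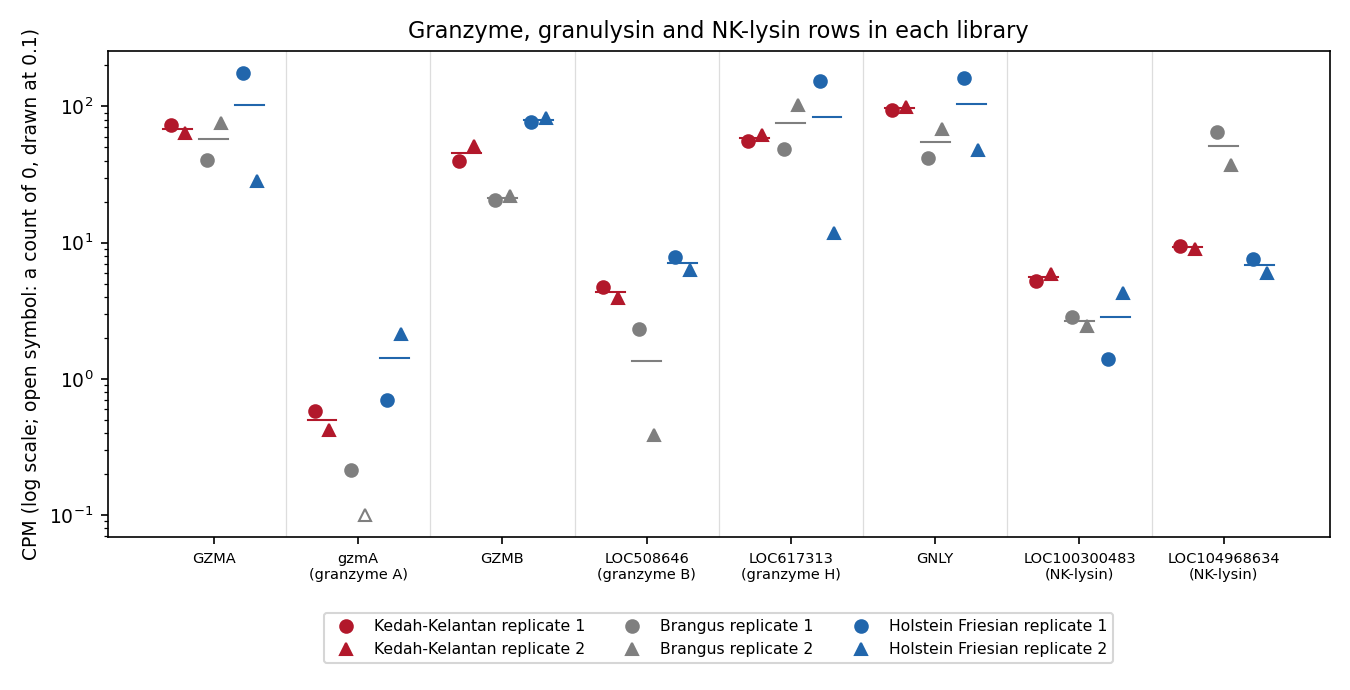
Level in CPM (log axis) of granzyme, granulysin and NK-lysin rows in each library, circles for replicate 1, triangles for replicate 2, bars for breed means, and an open symbol for a count of 0. LOC104968634 is highest in both Brangus libraries (64.8 and 37.4 CPM), and LOC617313 parts between the Holstein Friesian replicates (155 and 11.7 CPM).

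Of 21 tested genes of granule traffic and granzyme processing, Kedah-Kelantan had 6 higher and 15 lower than Holstein Friesian (median log2 fold change -0.28), Brangus had 6 higher and 15 lower than Holstein Friesian (-0.33), and Kedah-Kelantan had 11 higher and 10 lower than Brangus (0.04). edgeR called 0 of them, as in every gene list described from here on, and DESeq2 called 1, SYTL2, whose product tethers secretory granules. That call was in Kedah-Kelantan against Brangus, where DESeq2 called 4.99% of all genes. SYTL2 had 61.7 and 59.1 CPM in Kedah-Kelantan blood, 30.9 and 32.8 in Brangus blood, and 41.4 and 31.5 in Holstein Friesian blood, and was 0.92 higher on the log2 scale (SE 0.20, DESeq2 adjusted p = 0.00495) in Kedah-Kelantan than in Brangus. RAB27A, a GTPase of granule docking, had 271 and 300.2 CPM in Kedah-Kelantan cows, 513 and 485 in Brangus cows, and 255 and 394 in Holstein Friesian cows. VAMP8, a granule fusion protein, had 82.9 and 93.8 CPM in the Kedah-Kelantan libraries, 157 and 151 in those of Brangus, and 159 and 110.0 in those of Holstein Friesian.

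Of 14 other tested effectors of cytotoxic cells, Kedah-Kelantan had 8 higher and 6 lower than Holstein Friesian (median log2 fold change 0.03), Brangus had 6 higher and 8 lower than Holstein Friesian (-0.28), and Kedah-Kelantan had 8 higher and 6 lower than Brangus (0.21). FASLG, the death ligand of cytotoxic cells, had 17.7 and 15.6 CPM in Kedah-Kelantan blood, 8.95 and 9.07 in Brangus blood, and 13.8 and 12.3 in Holstein Friesian blood. It was 0.89 higher on the log2 scale in Kedah-Kelantan than in Brangus (SE 0.23, edgeR adjusted p = 0.353, DESeq2 adjusted p = 0.00857), the 1 DESeq2 call of the list. DESeq2 called 4.99% of all genes in that comparison. CD244, a receptor of NK and T cells, had 189 and 171 CPM in Kedah-Kelantan cows, 91.4 and 109 in Brangus cows, and 144 and 261 in Holstein Friesian cows. LTB, a membrane cytokine of lymphocytes, had 344 and 401 CPM in the Kedah-Kelantan libraries, 556 and 663 in those of Brangus, and 307 and 410.1 in those of Holstein Friesian.

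Of 11 tested CCL5 receptors and related chemokines, Kedah-Kelantan had 5 higher and 6 lower than Holstein Friesian (median log2 fold change -0.02), Brangus had 2 higher and 9 lower than Holstein Friesian (-0.82), and Kedah-Kelantan had 9 higher and 2 lower than Brangus (0.72). CCR3, which eosinophils also carry, had 149.7 and 169 CPM in Kedah-Kelantan blood, 18.1 and 22.4 in Brangus blood, and 7.42 and 481 in Holstein Friesian blood. CCL3, a related inflammatory chemokine, had 2.54 and 3.93 CPM in Kedah-Kelantan cows, 6.98 and 9.02 in Brangus cows, and 6.01 and 5.25 in Holstein Friesian cows, the reverse of CCL5. Its log2 fold change of Kedah-Kelantan against Brangus was -1.30 (SE 0.40, edgeR adjusted p = 0.368, DESeq2 adjusted p = 0.0388). This was the 1 DESeq2 call of the list, in a comparison where DESeq2 called 4.99% of all genes. CCL4, another chemokine of cytotoxic cells, had 8.56 and 9.68 CPM in the Kedah-Kelantan libraries, 4.71 and 1.98 in those of Brangus, and 3.12 and 8.67 in those of Holstein Friesian.

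Of 11 relatives and signalling partners of ADGRG1, Kedah-Kelantan had 3 higher and 8 lower than Holstein Friesian (median log2 fold change -0.27), Brangus had 3 higher and 8 lower than Holstein Friesian (-0.17), and Kedah-Kelantan had 5 higher and 6 lower than Brangus (-0.04). ADGRG5, a related adhesion receptor, had 75.6 and 77.7 CPM in Kedah-Kelantan blood, 27.5 and 22.9 in Brangus blood, and 46.5 and 25.5 in Holstein Friesian blood. It was 1.60 higher on the log2 scale in Kedah-Kelantan than in Brangus (SE 0.32, edgeR adjusted p = 0.353, DESeq2 adjusted p = 0.00182). TGM2, a transglutaminase that binds ADGRG1 in human cells, had 4.67 and 5.56 CPM in Kedah-Kelantan cows, 10.8 and 10.6 in Brangus cows, and 4.40 and 3.88 in Holstein Friesian cows. DESeq2 called TGM2 higher in Brangus than in Holstein Friesian (1.37, SE 0.31, adjusted p = 0.001) and lower in Kedah-Kelantan than in Brangus (-1.07, SE 0.31, adjusted p = 0.00929), with fold changes and SE from edgeR. Over all genes, DESeq2 called 2.33% in Brangus against Holstein Friesian and 4.99% in Kedah-Kelantan against Brangus. RHOA, the GTPase downstream of ADGRG1, had 663 and 758 CPM in the Kedah-Kelantan libraries, 971 and 904 in those of Brangus, and 1029 and 907 in those of Holstein Friesian.

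Of 16 transcription factor genes of the cytotoxic programme, Kedah-Kelantan had 6 higher and 10 lower than Holstein Friesian (median log2 fold change -0.09), Brangus had 3 higher and 13 lower than Holstein Friesian (-0.21), and Kedah-Kelantan had 14 higher and 2 lower than Brangus (0.19). BHLHE40, a transcription factor of activated lymphocytes, had 157 and 173 CPM in Kedah-Kelantan blood, 142 and 136 in Brangus blood, and 228 and 206 in Holstein Friesian blood. It was -0.64 on the log2 scale (SE 0.16, edgeR adjusted p = 0.642, DESeq2 adjusted p = 0.00509) in Brangus against Holstein Friesian, the 1 DESeq2 call of the list. DESeq2 called 2.33% of all genes in that comparison. ID2 and RUNX3, which promote NK cell and cytotoxic T cell development, were lowest in Brangus. ID2 had 75.2 and 87.0 CPM in Kedah-Kelantan cows, 68.9 and 64.0 in Brangus cows, and 77.5 and 153 in Holstein Friesian cows. RUNX3 had 149 and 160.5 CPM in the Kedah-Kelantan libraries, 114 and 131 in those of Brangus, and 179 and 147 in those of Holstein Friesian.

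Several NK cell receptor genes were, like CCL5, ADGRG1, GZMK, GZMM and CTSW, higher in both Kedah-Kelantan libraries than in the other 4. KLRK1, the activating receptor NKG2D, had 34.9 and 30.8 CPM in Kedah-Kelantan blood, 6.55 and 8.51 in Brangus blood, and 9.13 and 6.35 in Holstein Friesian blood. NCR1 had 43.3 and 38.3 CPM in Kedah-Kelantan cows, 14.002 and 10.6 in Brangus cows, and 9.97 and 17.6 in Holstein Friesian cows. KLRD1, the receptor subunit CD94, had 38.9 and 30.9 CPM in the Kedah-Kelantan libraries, 1.58 and 5.28 in those of Brangus, and 16.3 and 6.01 in those of Holstein Friesian. Of 12 NK cell markers tested, Kedah-Kelantan had 8 higher and 4 lower than Holstein Friesian (median log2 fold change 0.41), Brangus had 2 higher and 10 lower than Holstein Friesian (-0.29), and Kedah-Kelantan had 9 higher and 3 lower than Brangus (0.70). edgeR called 0 of them, while DESeq2 called KLRK1 and NCR1 higher in Kedah-Kelantan than in Holstein Friesian, where it called 0.985% of all genes. DESeq2 also called KLRK1, NCR1, KLRD1 and KLRB1 higher in Kedah-Kelantan than in Brangus, with edgeR log2 fold changes of 2.12, 1.73, 3.34 and 2.11. It called 4.99% of all genes in that comparison. The summed NK list was 752 and 787 CPM in Kedah-Kelantan blood, 771 and 899.7 in Brangus blood, and 619 and 1284 in Holstein Friesian blood, but most of it was FCGR3A, IL2RB and TYROBP, which other blood cells also express. NCAM1 had 0 counts in 5 of the 6 libraries and CD160 in all 6.

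Of 14 tested T cell markers, Kedah-Kelantan had 4 higher and 10 lower than Holstein Friesian (median log2 fold change -0.13), Brangus had 3 higher and 11 lower than Holstein Friesian (-0.26), and Kedah-Kelantan had 10 higher and 4 lower than Brangus (0.15). CD8A, of cytotoxic T cells, had 112 and 127 CPM in Kedah-Kelantan cows, 61.2 and 60.7 in Brangus cows, and 122 and 59.5 in Holstein Friesian cows, so that Holstein Friesian replicate 1 lay within the Kedah-Kelantan range and replicate 2 below both Brangus values. CD8B had 44.9 and 52.9 CPM in the Kedah-Kelantan libraries, 26.0 and 30.6 in those of Brangus, and 35.5 and 18.4 in those of Holstein Friesian. CD4 had 253 and 269.5 CPM in Kedah-Kelantan blood, 332 and 209.6 in Brangus blood, and 116 and 793 in Holstein Friesian blood. The gamma delta T cell list, not specific as stated above, summed to 159 and 169 CPM in Kedah-Kelantan cows, 219 and 246 in Brangus cows, and 428 and 136 in Holstein Friesian cows. Platelet markers summed to 321 and 368 CPM in the Kedah-Kelantan libraries, 1287 and 1402 in those of Brangus, and 420.4 and 577 in those of Holstein Friesian, and red cell markers to 150.1 and 188, 450.4 and 647, and 101 and 239.7 CPM in the same order of breeds. Eosinophil, basophil and mast cell markers summed to 266 and 278 CPM in Kedah-Kelantan blood, 46.8 and 42.4 in Brangus blood, and 41.5 and 710.0 in Holstein Friesian blood. The part of these cell types in the levels of the 10 genes was not tested.

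Among 11056 other genes with a mean log2 CPM of at least 1, CD1D, SH2D1A, TMEM39A and ZNF341 were among the 5 whose log2 CPM was most like that of CCL5 over the 6 libraries, with Pearson r from 0.989 to 0.996. SH2D1A, the signalling adaptor SAP of T and NK cells, had 109 and 124 CPM in Kedah-Kelantan cows, 65.9 and 59.8 in Brangus cows, and 56.2 and 72.1 in Holstein Friesian cows. CD1D, a lipid-presenting molecule, had 42.8 and 47.9 CPM in the Kedah-Kelantan libraries, 29.8 and 30.0 in those of Brangus, and 29.2 and 33.1 in those of Holstein Friesian. Among the 10 genes themselves, ADGRG1 had an r of 0.99 with CCL5, while GZMA had -0.10 and GZMB 0.12. The 5 genes most like the mean standardized log2 CPM of all 10 were LMBR1, DCAF15, EGR1, LOC100297905 and BRPF1, with r from 0.987 to 0.993. EGR1, an immediate early transcription factor, had 9.62 and 10.1 CPM in Kedah-Kelantan blood, 3.43 and 3.27 in Brangus blood, and 6.41 and 3.31 in Holstein Friesian blood. These correlations rest on 6 libraries that share their breeds and their scaling, and they describe likeness only.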

How the data were processed

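Whole blood RNA was sequenced in 6 libraries, 2 per breed. Per the submitters' processing notes, the authors used FastQC 0.11.9, Trimmomatic 0.39, HISAT2 2.2.1, featureCounts 2.0.1, DESeq2 1.38.0 and the genome build ARS-UCD1.2. Their settings and the strandedness of the counting were not stated. The deposited values are raw counts per gene and FPKM per gene, both made by the authors. Gene positions are the authors' and are not tied to a build here, and chromosome numbers come from matching gene symbols to a RefSeq table of another cattle assembly, of which no coordinates were used. No sequence of the genes was used here.

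Counts were tested with edgeR 4.0.16 in R 4.3.3: TMM scaling, filterByExpr, a robust quasi-likelihood fit with breed as the only term over all 6 libraries, and Benjamini-Hochberg adjustment over 13455 genes, with calls at an adjusted p under 0.05. The fit has 3 residual degrees of freedom, and its common biological coefficient of variation was 0.431. CPM are counts scaled to TMM-adjusted library sizes. SE is the log2 fold change over the root of the F statistic. DESeq2 1.42.0 and limma 3.58.1 gave alternatives, as did other scalings, filters, a replicate block, leaving out each library, removing haemoglobin genes, and limma on log2(FPKM + 0.1). The p-values measure only the spread between these libraries.

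The 10 genes and all gene lists were chosen with earlier results of these data known. All 10 were named, with rows described as granzyme, granulysin or NK-lysin, and from each list the genes called by any tool or the 3 with the smallest p for any breed difference. Genes outside this rule are TBX21, EOMES, ZNF683, HOPX, IKZF3, NFIL3, KLRB1, FIBP, CD3E, MS4A1, S100A8, NCAM1, CD160 and the leading genes of the NK sum, which were named after their values were seen. The 5 genes most like CCL5 and the 5 most like the mean of all 10 were also named, except 1 that is not reported here.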

Additional observations from a re-analysis of the deposited data

How the results depend on the processing

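Of 480 results for the 10 genes under the alternatives, 407 kept their direction and their side of the threshold, 52 newly passed it in the same direction and 21 changed sign, 1 of which also passed (GNLY in Kedah-Kelantan against Holstein Friesian without Holstein Friesian replicate 1). The cause of these changes was not tested. Genes called by edgeR in Kedah-Kelantan against Holstein Friesian numbered 1, against 130 with DESeq2, 0 with a mean count of at least 50, limma-voom, only the 2 breeds compared or a replicate block, and 0 to 2464 with 1 library left out. For Brangus against Holstein Friesian they numbered 1, against 313 with DESeq2, 0 with DESeq2's scaling, the mean count of 50, limma-voom, only the 2 breeds or the replicate block, and 0 to 4395 with 1 library left out. For Kedah-Kelantan against Brangus they numbered 0, against 672 with DESeq2, 1936 with limma-voom, 2537 with only the 2 breeds, and 0 to 2458 with 1 library left out. For any breed difference they numbered 0, against 625 with DESeq2, 1 without the filter, 1 with FPKM, and 0 to 4783 with 1 library left out. Deviations of same-numbered libraries were nearly uncorrelated between breeds (0.0136, 0.0541 and -0.00171), which cannot show whether the samples were paired. The replicate block gave 0 calls in every comparison, where the main fit gave 0 or 1. FPKM shifted the median log2 fold change of all genes to 0.18, -0.09 and 0.28. In Kedah-Kelantan against Holstein Friesian, GZMA was 0.11 with FPKM and GNLY 0.11 with limma-voom and 0.29 with FPKM. With 1 library left out, GZMA ran from -1.40 to 1.28, GNLY from -0.78 to 1.00, PRF1 from -0.029 to 1.34 and NKG7 from -0.17 to 1.06. In Brangus against Holstein Friesian, ADGRG1 was -0.0061 without the filter, -0.0027 with the mean count of 50 and -0.059 with FPKM. With 1 library left out, GZMA ran from -1.65 to 1.01, GZMM from -0.51 to 0.13, GNLY from -1.59 to 0.18, NKG7 from -0.67 to 0.55, CTSW from -0.11 to 0.61, CCL5 from -0.36 to 0.20 and ADGRG1 from -0.22 to 0.27. In Kedah-Kelantan against Brangus, GZMA ran from -0.13 to 0.78.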

Other observations

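GZMB lies on chromosome 21 among rows described as mast cell proteases, relatives of the granzymes in the same gene cluster, and these had another pattern than GZMB. LOC100139881 (34725736 to 34730649) had 49 and 52 counts in Kedah-Kelantan blood, 0 and 22 in Brangus blood, and 2 and 671 in Holstein Friesian blood. LOC505326 (34750912 to 34752965) had 54 and 48 counts in Kedah-Kelantan blood, 0 and 0 in Brangus blood, and 2 and 251 in Holstein Friesian blood. The third row, LOC540321, had at most 21 counts, in Holstein Friesian replicate 2. GZMB, between the first pair of rows, had 2285 and 2151 counts in the same Holstein Friesian libraries. These rows were looked at after other values had been seen. LOC540321 had too few counts to test. edgeR called neither of the other rows, with an adjusted p of 0.995 for both in Kedah-Kelantan against Holstein Friesian. For Brangus against Holstein Friesian, edgeR gave LOC100139881 an adjusted p of 0.666 and LOC505326 0.649, and for Kedah-Kelantan against Brangus 0.804 and 0.457. DESeq2 called LOC505326 lower in Brangus than in Holstein Friesian (adjusted p = 0.0104) and higher in Kedah-Kelantan than in Brangus (adjusted p = 0.0374), although Holstein Friesian replicate 1 had only 2 counts.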
